A study of Mus musculus with 4 samples.

Results

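The genes described here are 7 genes of the colony stimulating factor and stem cell factor group, namely the ligands Csf1, Csf2, Csf3, Kitl, Il34 and Flt3l and the receptor Flt3. They were chosen by name, as the genes that the array files give to non-control probes. The rule used no measured value, but earlier results of these data were known when the members were chosen. They were represented by 9 probes, 1 each for Csf1, Csf2, Csf3, Il34 and Flt3 and 2 each for Kitl and Flt3l, out of 41174 probes for 26715 genes. All 7 were well above background on at least 1 array, and 4 of them (Csf1, Kitl, Il34 and Flt3l) on all 4 arrays.

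The RNA came from IMS/N cells, a mouse hepatic stellate cell line that was derived from normal animals of strain 129/Sv and immortalized by SV40 virus, and every group shares that line. The study asked how medium from adipose tissue-derived stem cells (ADSCs) acts on stellate cells activated with IL17A. The 4 groups were untreated cells, cells given recombinant murine IL17A, cells given medium in which ADSCs had been cultured, and cells given both. The ADSCs were grown from inguinal subcutaneous fat of male C57BL/6J mice aged 8 to 10 weeks. Doses and times were not given in the sources used here. Each group had 1 array, so no difference between arrays has a replicate check, and errors quoted below, between repeated spots of a probe on an array or, for single spots, from the scanner software's error model, cover measurement only.

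Colony stimulating factors are secreted proteins that keep myeloid cells alive and drive their division and maturation. Csf2 (GM-CSF) and Csf3 (G-CSF) are made on demand by stromal cells under inflammation and act on granulocytes and macrophages, whereas Csf1 and Il34 are ligands of the macrophage receptor Csf1r and maintain tissue macrophages such as the Kupffer cells of the liver. Kitl (stem cell factor) binds the receptor tyrosine kinase Kit on haematopoietic progenitors and mast cells, and Flt3l binds the related receptor Flt3 on dendritic cell progenitors.

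The proximal promoters of Csf2 and Csf1 are shown because, among the ligands with a promoter in the table used, Csf2 was far brighter on both IL17A arrays and Csf1 was nearly level with IL17A. Each sequence is the 250 bases before the gene's start from RefSeq on GRCm38.p6, 5′ to 3′ on the gene's strand. Csf2 lies at chr11:54249900-54250149 on the minus strand and its capitals mark a C/EBP match, and Csf1 lies at chr3:107760470-107760719 on the minus strand and its capitals mark an NF-kB match.
Csf2: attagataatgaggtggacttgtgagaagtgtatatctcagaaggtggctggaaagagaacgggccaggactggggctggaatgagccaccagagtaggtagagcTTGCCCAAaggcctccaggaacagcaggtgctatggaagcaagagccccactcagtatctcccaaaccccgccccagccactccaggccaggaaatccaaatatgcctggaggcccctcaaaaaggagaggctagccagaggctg
Csf1: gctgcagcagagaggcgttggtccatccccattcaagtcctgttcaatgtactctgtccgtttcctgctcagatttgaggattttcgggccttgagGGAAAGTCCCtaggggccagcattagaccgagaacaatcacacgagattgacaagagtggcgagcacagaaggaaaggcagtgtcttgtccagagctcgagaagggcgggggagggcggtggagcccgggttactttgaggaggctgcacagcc
Both strands were searched for the C/EBP motif TTGCNNAA, the AP-1 motif TGANTCA, the usual degenerate NF-kB consensus and the TATA box. The Csf2 window held the C/EBP letters from 145 bases before the start, and the Csf1 window held the NF-kB letters from 154 bases before the start. Of 32851 promoter windows of this length, 9.56% held a C/EBP match, 3.9% an NF-kB match, 6.75% an AP-1 match and 17.0% a TATA box. Of the other members with a promoter in the table, Kitl had a TATA box 25 bases before its start, and Flt3 and Flt3l had no match. Such matches describe letters only, and 5 of the 7 genes were in the table, without Csf3 and Il34.

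The share of spots above background and the absence of saturation were alike in the 4 groups. The median processed signal was 22.1 untreated, 17.6 with IL17A, 17.5 with medium and 20.6 with both. Between 58.1% and 60.5% of the 43379 non-control spots of an array were well above background, and no spot was saturated. Levels are log2 processed intensities after quantile normalization, and the lowest level well above background was 2.34 to 2.74 by array. The SD that spots of a probe gave for a difference of 2 arrays was 0.50 for levels below 5, 0.14 from 5 to 7 and 0.0865 above 7. The untreated and IL17A arrays shared a slide and a scan, and both arrays with ADSC medium shared another, so each IL17A difference lay within a slide, and the effect of ADSC medium and of the slide cannot be told apart. Cxcl1 and Il6, genes that IL17A is known to induce, were higher with IL17A by 5.26 and 6.76 log2 units without medium and by 5.38 and 5.48 with it. Of 17 stellate and fibroblast markers, 10 to 13 were above background by array, with Reln, Hand2, Gfap and Lum on none and Lrat on the array with both agents alone. Dcn differed by 4.12 with IL17A alone and 3.09 within medium, and its part in the members' values was not tested. Among these markers measured on both arrays, 4 were above 0 and 6 below with IL17A, and 5 and 7 within medium. No mast cell marker of 5 was above background on any array, nor was any hepatocyte marker of 4, and among 10 leukocyte markers 4 or 5 were, without Adgre1, Itgam, Spi1, Tyrobp and Clec4f. Above background on all 4 arrays were Cd68, Lyz2, Fcer1g and Csf1r, of which Csf1r was 1.41 higher with IL17A, and Ptprc was above background with both agents alone, at least 2.4-fold over medium. The part of these leukocyte markers in the members' values was not tested. Of 6 endothelial markers 2 were above background, without Pecam1 and Cdh5. Of 6 cholangiocyte and mesothelial markers 3 or 4 were, and Krt19 among them differed by −1.39 with IL17A alone and −2.21 within medium, and its part in the members' values was not tested.

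**Figure D1:**
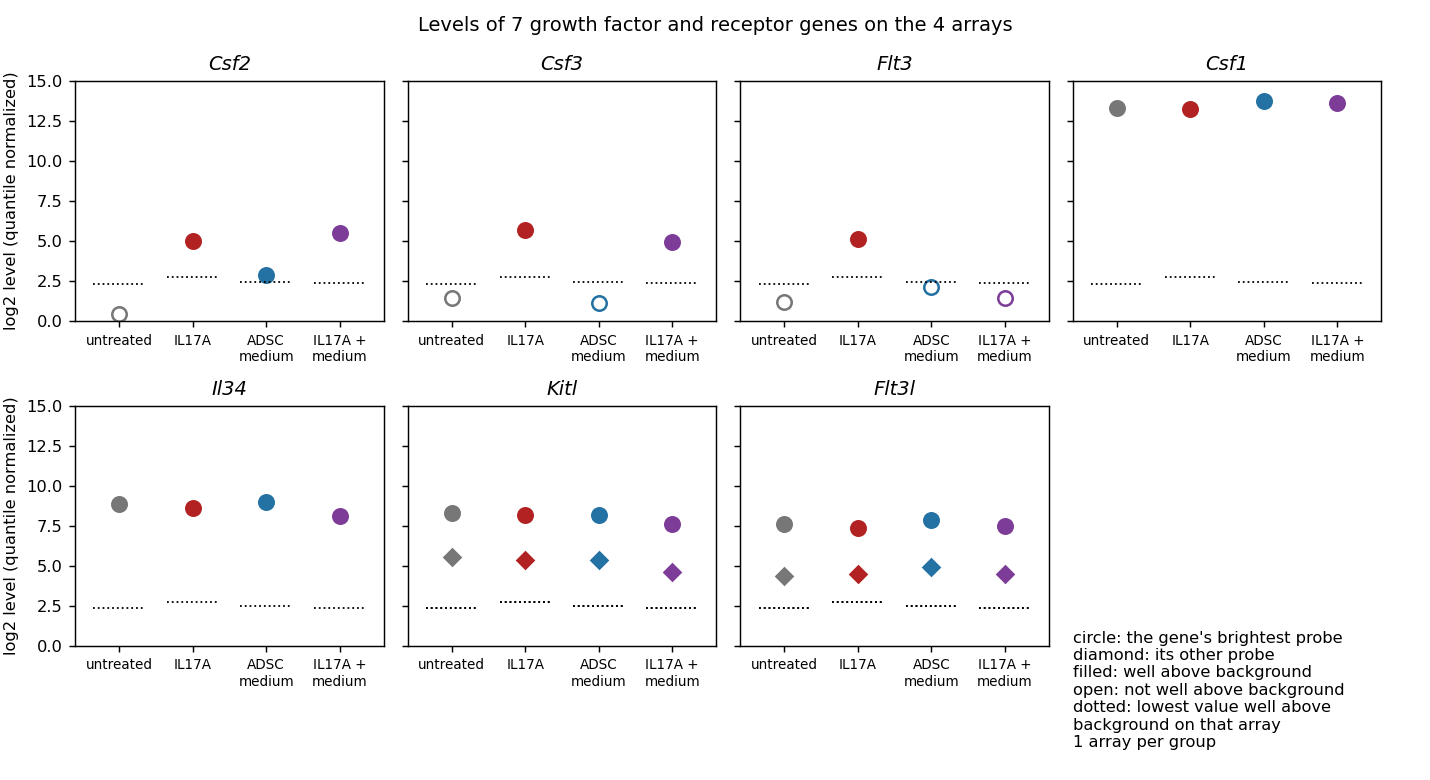
Quantile-normalized log2 level of each gene (vertical axis) on the 4 arrays (horizontal axis, 1 array per group), with filled points well above background, open points not, diamonds for the other probe of a gene, and dotted lines for the lowest level well above background on that array. Csf2, Csf3 and Flt3 go from open or low points to levels near 5 on the IL17A array, and the remaining 4 genes lie in a narrow band across the arrays.

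Csf2, the ligand that drives granulocyte and macrophage growth, had a probe printed in 10 spots (chr11:54060772-54060799 on mm9, the build of all probe positions here, minus strand). Its mean level was 0.46 ± 0.20 (SD of 10 spots) on the untreated array, 4.97 ± 0.09 (9 spots) on the IL17A array, 2.91 ± 0.40 (10 spots) on the ADSC medium array and 5.52 ± 0.14 (10 spots) on the array with both. The number of spots well above background was 0, 9, 7 and 10 in that order. Thus Csf2 was not detected above background in untreated cells, was dim with medium alone, and was brightest with both agents, and the spots of no pair of arrays overlapped. In RNA from whole cultures, more cells that make a transcript and more transcript per cell cannot be told apart. The processed intensities behind these levels were low, at 1.51, 28.9, 6.94 and 47.5. IL17A alone gave at least 6.20-fold more Csf2 than no treatment, a bound. For bounds, the dim side took the lowest level well above background on its array, over all probes, or its own level where that was higher. Within medium both sides were measured, and Csf2 was 6.09-fold higher with IL17A (log2 difference 2.61), above 99.9% of the 14930 genes measured on both arrays. Medium alone gave at least 1.48-fold more than no treatment, and adding medium to IL17A gave 1.46-fold more than IL17A (log2 difference 0.54), a value inside the middle 90% of all genes in that comparison, from −0.73 to 0.77.

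Csf3, the ligand that mobilizes neutrophils, was measured by 1 spot per array (chr11:98564614-98564673, plus strand). Its level was 1.47 on the untreated array, 5.67 on the IL17A array, 1.13 on the medium array and 4.91 on the array with both. It was well above background on both IL17A arrays and on neither array without IL17A. The scanner's processed intensity and its error were 3.17 ± 1.52, 48.1 ± 5.02, 2.0 ± 1.37 and 32.0 ± 3.56 in the same order (error of the scanner software's model, 1 spot). Csf3 was at least 10.1-fold higher with IL17A than without treatment, and at least 5.43-fold higher with both than with medium alone. With medium added to IL17A its level was lower by 0.76 on the log2 scale, 0.592 times that of IL17A alone, which ranked at percentile 4.7 of 14702 genes and did not reach 2-fold. This pair of arrays lay on different slides, and a level of 4.91 stands in the range where the spot error of a difference was 0.50.

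**Figure D2:**
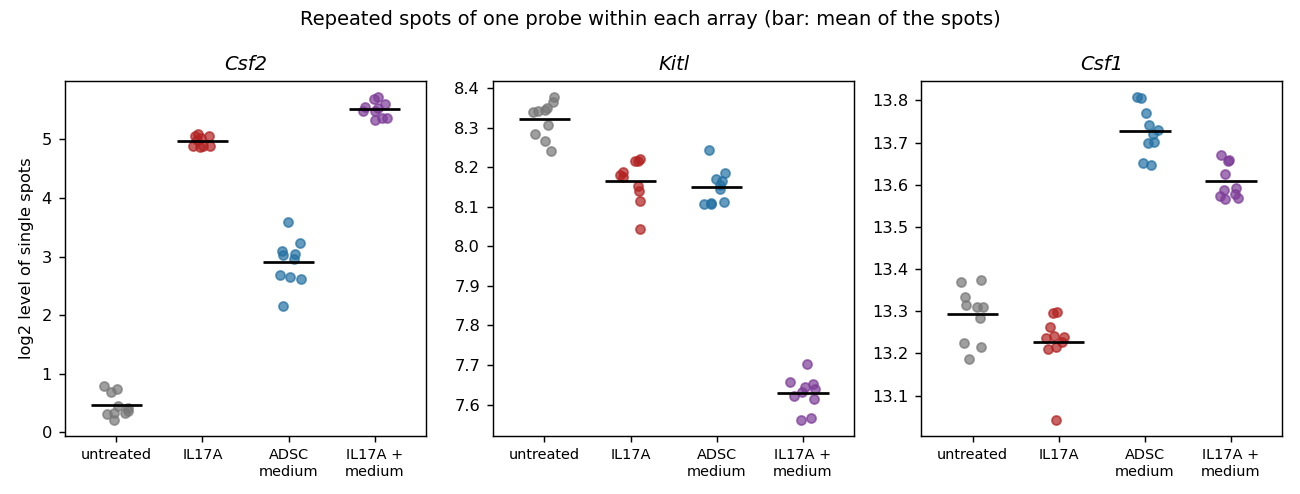
Log2 level of every single spot (vertical axis, scaled separately in each panel) for Csf2, Kitl and Csf1 on the 4 arrays, with bars for the means of the spots. Csf2 spots form 4 separate groups, Kitl spots on the array with both agents all lie below those of the other arrays, and Csf1 spots divide by slide, with both medium arrays higher.

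Csf1, the main growth factor of macrophages, was bright on every array (10 spots, chr3:107544333-107544392, minus strand). Its levels were 13.29 ± 0.06 untreated, 13.23 ± 0.07 with IL17A, 13.73 ± 0.06 with medium and 13.61 ± 0.04 with both (SD of 10 spots each). The untreated and IL17A spots overlapped, as did those of both medium arrays, and all medium spots exceeded all spots of the other slide. The IL17A differences were −0.07 without medium and −0.12 with it, and the first turned to 0.18 when arrays were scaled to their medians, a scaling that moved the median of all genes to 0.21 in that comparison. The medium differences were 0.43 without IL17A and 0.38 with it, both within the middle 90% of genes.

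Il34, the other ligand of Csf1r, was measured by 1 spot (chr8:113265835-113265894, minus strand). Its level was 8.87 untreated, 8.63 with IL17A, 8.99 with medium and 8.14 with both. The array with both agents was the lowest, and the untreated and medium arrays were the highest. The IL17A difference was −0.24 on the slide without medium and −0.85 on the slide with it, where Il34 stood at 0.556 times the level of medium alone and at percentile 1.86 of all genes. The scanner's processed intensity and its error were 492 ± 49.3 untreated, 392 ± 39.3 with IL17A, 497 ± 49.7 with medium and 281 ± 28.1 with both (error of the scanner software's model, 1 spot). The smaller spot error of 0.0865 comes from repeated spots of other probes. Both IL17A differences were short of 2-fold, except that the second reached −1.06 under median scaling, which moved the median of all genes to −0.24 there. ADSC medium gave 0.12 without IL17A and −0.49 with it.

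Kitl, the ligand of Kit that supports progenitors and mast cells, was read by a probe of 10 spots (chr10:99562481-99562540, plus strand) and by the other probe of 1 spot (chr10:99539380-99539439). The levels of the first were 8.32 ± 0.04 untreated, 8.17 ± 0.06 with IL17A, 8.15 ± 0.04 with medium and 7.63 ± 0.04 with both (SD of 10 spots each). The other probe read 5.57, 5.39, 5.34 and 4.59. On both probes the untreated array was highest and the array with both agents lowest, while the IL17A and medium arrays were close, with overlapping spots on the first probe. The IL17A difference was −0.16 without medium and −0.52 with it on the first probe, and −0.18 and −0.76 on the other. The array with both agents stood lower than the untreated array by 0.69 and 0.98 on these probes. The small differences of either agent alone changed sign under median scaling, to 0.06 for IL17A and 0.04 for medium, and those of the array with both agents kept theirs under every setting run.

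Flt3l, the growth factor of dendritic cells, had levels of 7.58 untreated, 7.38 with IL17A, 7.86 with medium and 7.51 with both on its brighter probe (1 spot, chr7:52386603-52386662, minus strand). Its other probe (1 spot, chr7:52389282-52389341) read 4.39, 4.49, 4.94 and 4.51. The medium array was the highest on both probes, and the other 3 arrays were close to each other. IL17A differences were −0.20 and −0.36 on the brighter probe and 0.10 and −0.43 on the other, so the probes differed in sign without medium. Adding medium to IL17A gave 0.13, which turned to −0.03 under median scaling.

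Flt3, the receptor of Flt3l, gave 1.21 untreated, 5.12 with IL17A, 2.15 with medium and 1.45 with both (1 spot, chr5:148159595-148159654, minus strand). It was well above background on the IL17A array and on no other, with processed intensities of 2.66 ± 1.22, 32.0 ± 3.42, 3.99 ± 1.10 and 3.0 ± 1.21 (error of the scanner software's model, 1 spot). This made it at least 6.86-fold higher with IL17A than untreated, and with both agents its level was at most 0.148 times that of IL17A alone. The value rests on 1 spot of 1 array. Above background on the IL17A array alone were 116 genes, Flt3 among them, and the corresponding counts were 419 genes for the untreated array, 273 for the medium array and 392 for the array with both.

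In IL17A against untreated cells, 3 of 7 members were at least 2-fold higher (Csf2, Csf3 and Flt3) and none was lower, where 2.17% of 15867 measured genes were higher and 2.29% lower. In both agents against medium alone, 2 of 6 measured members were higher (Csf2 and Csf3) and none lower, against 2.86% and 1.82% of 16079 genes. Medium against untreated cells gave 0 of 5 members in either direction, against 2.45% higher and 2.98% lower of 16098 genes. Both agents against IL17A gave 1 of 7 members lower (Flt3) and none higher, against 3.11% lower and 3.22% higher of 15890 genes. Both agents against untreated cells gave 2 of 6 members higher (Csf2, at least 9.02-fold, and Csf3, at least 5.95-fold) and none lower, against 3.39% and 4.29% of 16241 genes. These comparisons share arrays and are not independent of one another. Scaling to the 75th percentile moved the split of all genes in the first 4 of these comparisons, to 263 higher and 533 lower from 345 and 363, to 724 and 171 from 460 and 292, to 269 and 655 from 394 and 479, and to 774 and 372 from 511 and 494. The members called were the same under that scaling, and median scaling added Il34 as lower with both agents against medium. With normexp background correction, which adds an offset that compresses dim levels, no member reached 2-fold in any of these comparisons, and the Csf2 difference of IL17A against untreated was 0.64.

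**Figure D3:**
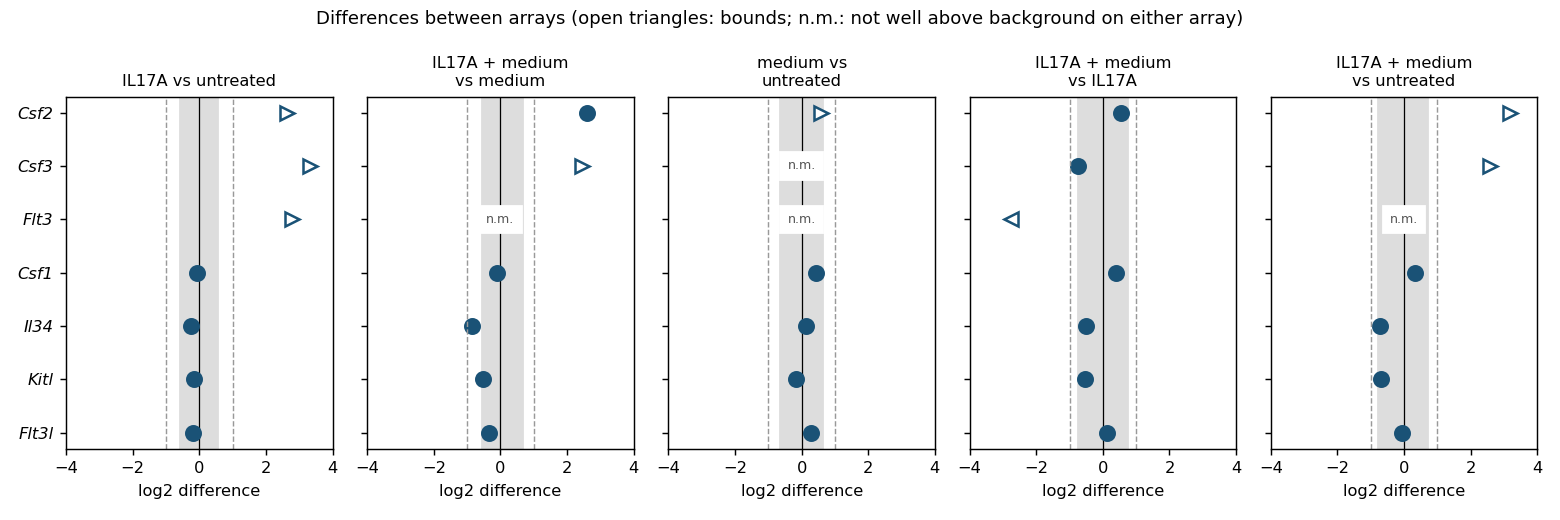
Log2 difference (horizontal axis) of each gene in the 5 comparisons, with filled circles for genes measured on both arrays, open triangles for bounds pointing away from the dim array, dashed lines at 2-fold and grey bands for the middle 90% of all genes. Csf2 and Csf3 lie beyond 2-fold in each comparison of an IL17A array with an array without it, and Flt3 lies beyond it on opposite sides in the comparisons that use the IL17A array.

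A single fit over the 4 arrays (limma, with an IL17A term and a medium term, 1 residual degree of freedom, Benjamini-Hochberg over 15469 genes) called 2.53% of genes higher and 3.79% lower with IL17A. Of the 6 members in that fit, Csf2 had a term of 3.56 on the log2 scale (95% interval 2.24 to 4.88, limma adjusted p = 0.0161). That term uses its untreated level as measured, below background. Entry took 2 arrays above background, and of the arrays without IL17A, Csf2 had only the medium array and Csf3 had none. Both thus entered through the IL17A arrays on which they were high, Csf3 with a term of 3.99 against levels below background. Their terms describe these arrays and are not counted as test results. The spread in the fit came from how far the IL17A differences with and without medium lay apart, pooled in part over genes. It is not an error between replicates, and a gene whose IL17A difference varied with medium could lose its call. Csf1, Kitl, Il34 and Flt3l did not pass, with terms of −0.09, −0.34, −0.54 and −0.28 and limma adjusted p of 0.409, 0.202, 0.0942 and 0.278. With only probes matched to a RefSeq accession tested, Il34 passed too (limma adjusted p = 0.0329). Without a trend in the spread the fit called no gene at all, 1852 of them having an unadjusted p under 0.05, so the Csf2 call depended on that setting (limma adjusted p = 0.349), and it was also lost with scaling to the 75th percentile (limma adjusted p = 0.0649). Flt3 was above background on too few arrays to enter. The IL17A differences with and without medium differed by −0.05 for Csf1, −0.36 for Kitl, −0.61 for Il34 and −0.15 for Flt3l, so 0 of 4 measured members reached 1 in size, where 3.7% of 14477 genes did so upward and 1.57% downward.

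The receptors of these ligands were mostly dim or absent. Of 10 listed receptors, 7 were above background on at least 1 array, while Csf3r, Kit and Il5ra were on none. With IL17A, 1 of 6 measured receptors was at least 2-fold higher, with a median difference of 0.25, and with both agents against medium 0 of 7 were higher and 1 lower, with a median of 0.31. The medians of all genes were 0.00 and −0.03. At least 2-fold, 2.17% of all measured genes were higher and 2.29% lower in the first comparison. The second gave 2.86% and 1.82%, and these shares hold for the lists below too. Csf1r, the receptor of Csf1 and Il34, read 3.15 untreated, 4.56 with IL17A, 3.35 with medium and 4.29 with both on its brightest probe, which gave 1.41 and 0.94, whereas the next probe, not above background untreated, gave a bound of 1.30 and a measured −0.17. Csf2ra, the ligand-binding chain of the Csf2 receptor, read 7.38, 7.54, 7.91 and 8.44. The lowest array was the untreated and the highest the one with both agents, 1.06 apart. Csf2rb2, a beta chain for Il3, was above background on the medium array alone. Sdc1, a syndecan that binds Il34, was the only listed receptor that rose in the limma fit (0.38, adjusted p = 0.0239). Of 11 listed pathway genes called in that fit, here and below, 1 (Zc3h12a) kept its call with scaling to the 75th percentile, 2 with median scaling, 3 with the mean of probes, 7 with normexp correction, and 0 without a filter or without a trend. The brightest Ptprz1 probe, at 17.9 on every array, carried no RefSeq accession and the other 3 probes of that gene were not above background, so its level is uncertain.

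No other cytokine of the family passed 2-fold with IL17A on its brightest probe. Of 9 listed, 8 were analysed, and 4 were measured in IL17A against untreated with 0 past 2-fold and a median difference of −0.12. Of 5 measured within medium, 0 passed either, with a median of −0.17. Tslp, an epithelial and stromal cytokine, gave 0.75 and 0.20. Il7, a lymphocyte growth factor, gave −0.28 and −0.52 on its brightest probe, at a level where the spot error of a difference was 0.50. Another Il7 probe gave 0.32 without medium and a bound of −0.88 within it, and the last gave −0.13 within medium. Il11, a cytokine of stromal and stellate cells, gave 0.05 and −0.41. Il11 was 1.21 higher with medium alone than untreated. Il5, above background only on the array with both agents, gave a bound of 0.43 within medium. Thpo, the platelet growth factor, named after its values were seen, gave −0.33 and 0.08 on its brightest probe, but −1.34 and −1.37 on the next, measured on all 4 arrays. Its last probe, above background on neither IL17A array, gave bounds of −0.82 and −0.39. The Thpo probes thus disagreed in size without medium and in sign within it. No gene of this list passed the limma fit.

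Genes that signal below these receptors, or feed back on them, gave 2 of 20 measured members at least 2-fold higher and 0 lower in each IL17A comparison, with medians of 0.02 and −0.00. The shares of all genes were 2.17% higher and 2.29% lower without medium, and 2.86% and 1.82% within it. Over all genes, the limma fit called 2.53% higher and 3.79% lower. The 2 listed genes past 2-fold were Pim2, a survival kinase induced by Stat5, and Socs3, the feedback inhibitor of the Csf3 receptor. Pim2 read 7.51 untreated, 9.74 with IL17A, 7.68 with medium and 8.81 with both. Its difference was 2.23 without medium and 1.13 with it. Socs3 read 10.84, 12.55, 11.25 and 12.41, with differences of 1.72 and 1.16, but its other probe gave 0.01 and 0.02. In the limma fit 2 of 20 rose, Pim2 (1.68, adjusted p = 0.0106) and Socs3 (1.44, adjusted p = 0.00215), and 2 fell. The genes that fell were Ptpn6, the phosphatase that restrains Kit and Csf receptors (−0.74, adjusted p = 0.0243), and Sh2b3, an adaptor that restrains Kit and Jak2 (−0.56, adjusted p = 0.0136), the latter named after its value was seen. With scaling to the 75th percentile all 4 calls were lost (limma adjusted p = 0.0831 for Pim2, 0.0502 for Socs3, 0.0657 for Ptpn6 and 0.0627 for Sh2b3), and with the mean of probes those of Pim2, Ptpn6 and Sh2b3 were (0.0681, 0.667 and 0.118). On another Ptpn6 probe, above background on every array, the IL17A differences were −0.02 and −0.33, against −0.61 and −0.87 on the brightest. Socs2, a feedback inhibitor, gave −0.91 and −0.33 and did not pass.

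Csf1 and Kitl are made as membrane proteins that can be cut loose, and all 6 listed genes of that step were above background on every array. None was past 2-fold in either IL17A comparison, with medians of 0.05 and 0.02. In the limma fit, Rhbdf2, the carrier of the protease Adam17, rose (0.62, adjusted p = 0.0152), as did Timp3, an inhibitor of that protease (0.57, adjusted p = 0.00506), and the protease Adam9 fell (−0.25, adjusted p = 0.0477). All 3 calls were lost with scaling to the 75th percentile (limma adjusted p = 0.0627, 0.0551 and 0.149) and with median scaling. That of Adam9 was also lost with normexp correction (0.139), and those of Rhbdf2 and Adam9 with the mean of probes (0.0591 and 0.11). Over all genes, the fit called 2.53% higher and 3.79% lower. Adam10 gave −0.25 and −0.31.

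Transcripts of Csf2 and Csf3 are known to be short-lived and controlled by RNA-binding proteins. All 12 listed decay and stabilizing factors were above background on every array. In each IL17A comparison 1 was at least 2-fold higher and 0 lower, with medians of 0.37 and 0.14. The shares of all genes were 2.17% higher and 2.29% lower without medium, and 2.86% and 1.82% within it. The listed gene past 2-fold was Zc3h12a, which encodes the RNase Regnase-1 that degrades cytokine transcripts. It read 5.42 untreated, 9.48 with IL17A, 5.10 with medium and 9.06 with both, so both IL17A arrays were high and both others low, by 4.05 and 3.96. In the limma fit 3 of 12 rose and 0 fell, namely Zc3h12a (4.01, adjusted p = 4.1e-05), Zfp36l1, a factor that speeds decay of AU-rich transcripts (0.54, adjusted p = 0.0213), and Rc3h1, a repressor of stem-loop transcripts (0.37, adjusted p = 0.049), the last named after its value was seen. The Zfp36l1 and Rc3h1 calls were lost with scaling to the 75th percentile (limma adjusted p = 0.109 and 0.103), with normexp correction (0.0644 and 0.096) and with the mean of probes (0.0803 and 0.396). Over all genes, that fit called 2.53% higher and 3.79% lower. Arid5a, which stabilizes such transcripts, gave 0.69 and 0.14 on its brightest probe. Its other probe, also above background on every array, gave 0.11 and −0.08, so the probes differed in sign within medium. With medium alone the probes were 1.08 and 1.14 higher than untreated. Zfp36l2 gave 0.41 and −0.63, opposite in sign, at levels where the spot error of a difference was 0.50.

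**Figure D4:**
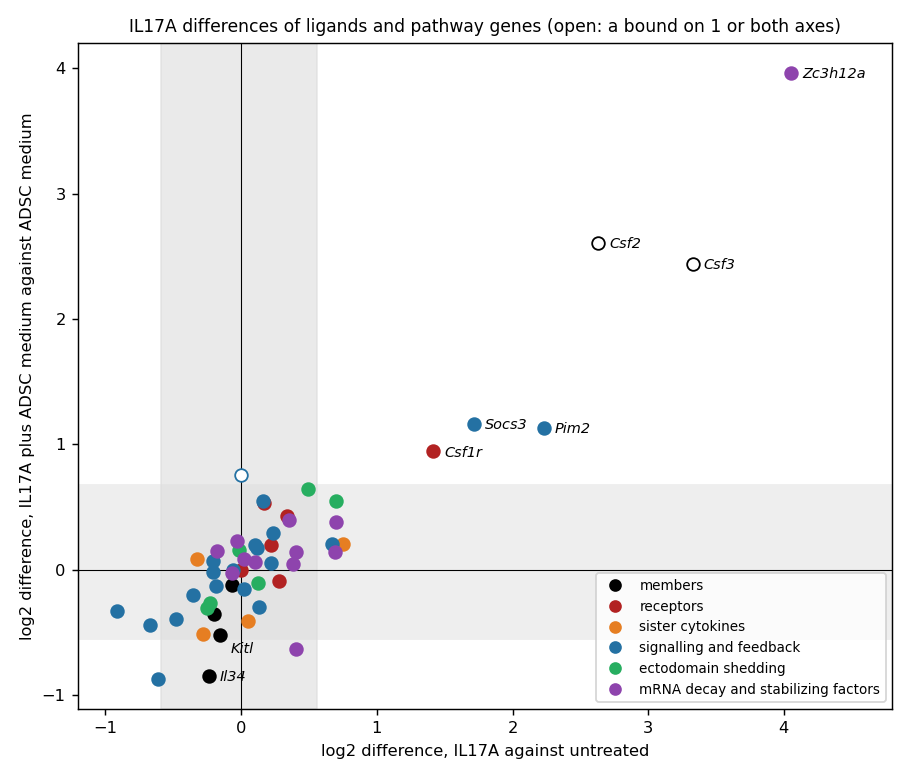
Log2 difference of IL17A against untreated (horizontal axis) and of both agents against ADSC medium (vertical axis) for members and listed pathway genes measured in both comparisons, with open points for a bound on an axis and grey bands for the middle 90% of all genes. Zc3h12a, Csf2, Csf3, Socs3, Pim2 and Csf1r stand apart at the upper right, and Il34 and Kitl lie below 0 on both axes, the horizontal value of Kitl turning to 0.06 under median scaling.

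The genes closest to each called member in the shape of their 4 levels, by Euclidean distance of centred log2 levels among genes above background on the same arrays, were as follows. For Csf2, out of 47 candidates, they included Lgi2 (distance 0.593), Trem2 (1.04), Slc1a2 (1.09) and Gpm6b (2.09). For Csf3, out of 40 candidates, they were Mettl7b (0.478), the antimicrobial peptide gene Camp (0.835), Lypd6b (0.874), the cytokine gene Il19 (0.96) and the tight junction gene Ocln (0.974). For Flt3, out of 69 candidates, they were Serpind1 (0.46), the olfactory receptor gene Olfr1097 (0.66), the vomeronasal receptor gene Vmn2r107 (0.714), Cdrt4os1 (0.715) and Tnfsf15 (0.731). Each likeness rests on 4 arrays.

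The authors' deposited table of probes upregulated with IL17A holds 861 probes, 2.09% of those on the array, and includes 3 of the 9 member probes, those of Csf2, Csf3 and Flt3. Their deposited table of probes higher with IL17A and lower once medium was added holds 1193 probes, 2.9% of the array, and includes 2 member probes, those of Csf3 and Flt3. The threshold behind these tables was not given in the sources used here.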

How the data were processed

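Total RNA of 4 cultures, 1 per group, was labelled with Cy3 per the labels' protocols. The deposited intensity values are linear, background-subtracted processed signals of 1-colour Agilent arrays read with Feature Extraction per the file headers, with probe positions on mm9, and mean and background signals beside them served an alternative. The deposited score columns flag spots as above background, saturated or outlying, with 0 or 1. The authors' 2 other tables are lists of probe IDs. Quantile normalization by the authors is named in the series' design text, and R 3.5.1 in the submitters' processing notes.

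Control spots and outlier spots (91 to 126 per array) were left out, log2 signals were quantile normalized (limma 3.58.1, R 4.3.3, with Python 3.11.15), and repeated spots were averaged. RefSeq accessions named 28696 of the 41174 probes (GRCm38.p6), including all 9 member probes, while 5761 were named by a current symbol, 163 by an older one and 6554 by the file. The position of a probe within its transcript was not determined. Each gene was represented by its brightest probe. A difference was called at 2-fold or more with the brighter side above background, with no test for single arrays. The fit used limma with a trend for genes above background on at least 2 arrays, and its p-values, resting on 1 residual degree of freedom, are approximate. The script was tested on simulated data in which every gene was above background on every array, so differences given as bounds were not covered. The text names every member, up to 4 genes of each list by the size of their IL17A differences, and the 5 nearest genes of each called member, except 1 gene that is not reported here, and genes named beyond that were chosen after their values were seen. Members, lists and tests were chosen with earlier results of these data known.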

Additional observations from a re-analysis of the deposited data

Results flagged for a closer look

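Il34 differed in sign between the effects of ADSC medium, with a log2 difference of 0.12 in cells without IL17A and −0.49 in cells with it. It was picked out because these differences had opposite signs and each exceeded 0.0865, an error taken from repeated spots of other probes. Without IL17A, however, the processed intensities lay within the scanner's error of each other, at 492 ± 49.3 untreated and 497 ± 49.7 with medium. Both differences compare arrays on different slides, each side is 1 spot of 1 array, and the difference between them was not tested.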

How the results depend on the processing

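The counts of members past 2-fold were 3 for IL17A against untreated, 2 for both agents against medium, 0 for medium against untreated, 1 for both against IL17A and 2 for both against untreated. With normexp background correction (offset 50) the 4 counts above 0 became 0, 0, 0 and 0, and the Csf2 differences with IL17A shrank to 0.64 and 0.67, those of Csf3 to 0.78 and 0.47 and that of Flt3 to 0.69. Restriction to genes above background on all 4 arrays also gave 0, 0, 0 and 0, since it leaves out Csf2, Csf3 and Flt3. Without a filter on dim probes, medium against untreated gave 1 member (Csf2). At 1.5-fold, both against IL17A gave 2 (Csf3 and Flt3), and both against untreated gave 4 (Csf2 and Csf3 higher, Kitl and Il34 lower). Differences of the IL17A effects of 1 or more in size went from 0 members to 1 (Il34) under median scaling and to 2 (Csf2 and Flt3) without a filter. The limma fit called 2 members, Csf2 and Csf3, both by way of the arrays on which they were high. It called 1 (Csf3) with scaling to the 75th percentile, 0 among genes above background on all 4 arrays, 0 without a filter (no gene of all was called, 2839 having an unadjusted p under 0.05) and 0 without a trend. Over its settings the adjusted p ran from 8.8e-12 to 0.391 for Csf2 and from 2.4e-14 to 0.352 for Csf3. Calls over all genes in that fit were 391 higher and 586 lower, against 99 and 66 with scaling to the 75th percentile, 110 and 56 with median scaling, 226 and 287 with normexp, 143 and 116 with the mean of probes, and 538 and 884 with RefSeq-matched probes. The cause of these changes was not tested where the setting itself does not leave genes out. In the other 43 combinations of count and setting, the count stayed within 1.5 times of the one reported. Dim signal limits Csf2, Csf3 and Flt3, whose intensities lay near background. No paired analysis was possible because each group had 1 array, so no replicate numbers pair them, though the limma fit, whose medium term is also the slide, compares IL17A within slides.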
